A study of Mus musculus with 2 samples.

Results

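The replication-dependent histone genes were described by class in granulocyte-monocyte progenitors (GMP), committed myeloid cells of the bone marrow that produce neutrophils and monocytes. Members were the protein-coding genes whose GENCODE M21 symbol starts with Hist and a cluster number from 1 to 4 followed by h, split into the linker histone H1 and the core histones H2A, H2B, H3 and H4. M21 holds 67 such genes, 64 of which had a row in the deposited gene tables, out of 21474 protein-coding genes with a row and 69691 rows in all. The 64 comprised 6 H1, 18 H2A, 15 H2B, 12 H3 and 13 H4 genes. The cells came from male C57BL/6J mice aged 5 to 6 weeks, with no treatment or allele named, and total RNA in the size range above 200 was sequenced from pools of 100 cells with spike-ins added. There was 1 group of 2 libraries, replicate 1 with 40509954 expected counts and replicate 2 with 35675702. No second group is analysed here, so the values describe this population and the spread between its libraries. The labels number the libraries as biological replicates 1 and 2. They also give both the same donor identifier and separate samples, without saying whether these were separate animals. An SD below therefore measures the spread between these libraries alone, which may be technical. No test was run, since 2 libraries of 1 group allow none.

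Core histones wrap DNA into nucleosomes and H1 binds the linker DNA between them. The replication-dependent genes are transcribed mainly in S phase, when newly copied DNA needs histones, and their messages end in a conserved stem-loop in place of a poly(A) tail, so that they are captured by total RNA libraries and largely missed by poly(A) selection. They lie in clusters of near-identical copies that encode the same or nearly the same protein. A separate set, the replacement histone genes, is for the most part expressed throughout the cell cycle from ordinary polyadenylated messages, though not every gene of the set is. The granulocyte-monocyte identity of the libraries was checked on known marker genes: all 8 progenitor genes were expressed, from Cebpa at 35.7 ± 0.622 TPM to Mpo at 6467 ± 191 TPM (SD, n = 2), whereas Ly6a, Il7r, Cd3e and Col1a1 had 0 counts in both libraries and Pf4, of megakaryocytes, had 0 counts in replicate 1 and 15 in replicate 2. For a gene that shares no reads with copies, a count of 0 allows up to 3 counts. This is 0.0741 CPM (counts scaled by library size) in replicate 1 and 0.0841 CPM in replicate 2.

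The members lie in 4 clusters of GRCm38. The 52 Hist1 genes span chr13:21715763-23934851, the 9 Hist2 genes chr3:96219865-96269141, the 2 Hist3 genes chr11:58948920-58956830, and the single Hist4 gene, Hist4h4, chr6:136801553-136804415. The Hist1 cluster held 95.8% of the summed histone TPM in replicate 1 and 93.1% in replicate 2, a mean of 94.5 ± 1.90% (SD, n = 2). The Hist2 cluster held 3.70% and 6.43% in the same order of libraries. These are shares of gene rows. With 4 transcripts that the deposited tables list under other gene IDs, described below, the Hist1 cluster held 80.6% and 87.0% and the Hist2 cluster 19.03% and 12.7%.

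The stem-loop known from these messages was searched in the M21 transcripts after the stop codon, as 6 paired bases on each side of a loop of 4. The pattern was GG, 2 pyrimidines and CT, then a loop of pyrimidines whose last base may be A, then AG, 2 purines and CC, with both arms complementary. It was found in 45 of 67 members, at 21 to 58 bases after the stop codon and a median of 31. In 18 of the 45 the M21 transcript runs 200 or more bases past the stem-loop, so the stem-loop does not end those models. Of the 22 members with no match, 15 have M21 models that end within 30 bases of the stop codon, so the window searched was short. The forms below are shown because they separate H4 from the other classes. Capitals mark the paired stem and lower case the loop.
Form 1, in 25 genes: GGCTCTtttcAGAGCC
Form 2, in 7 genes: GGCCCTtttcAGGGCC
Form 3, in 6 genes: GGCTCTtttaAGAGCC
Form 4, in 2 genes: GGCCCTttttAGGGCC
Form 5, in 2 genes: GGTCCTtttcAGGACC
Form 1 was held by 3 H1, 10 H2A, 7 H2B and 5 H3 genes and by 0 H4 genes. Forms 2, 4 and 5 were held by H4 genes and by 0 genes of the other classes. The remaining 3 forms had 1 gene each.

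Reads from these genes can be hard to assign, because many copies share long runs of coding sequence. Windows of 100 coding bases were compared with all M21 transcripts on their own strand. The median member had 39.9% of its windows in 1 gene only, and 13 of 67 members had no such window. By class the median was 95.1% in H1, 48.0% in H2B, 39.9% in H4, 28.4% in H3 and 14.1% in H2A. With windows of 50 bases it was 89.1% in H1, 22.7% in H2B, 29.7% in H4, 15.3% in H3 and 12.1% in H2A. A gene overlapping on the same strand counts as a second gene here, as for Hist3h2a, whose locus overlaps Trim17. The window held by the most H2A genes is shown with the same coding bases, 191 to 290, of Hist1h2ak, with 89.5% of its windows in 1 gene at 100 bases and 47.7% at 50 bases. The H4 window, coding bases 127 to 226, is set beside that of Hist1h4d, the highest member. Capitals mark the base that differs between the 2 genes of a pair.
Hist1h2ab, chromosome 13: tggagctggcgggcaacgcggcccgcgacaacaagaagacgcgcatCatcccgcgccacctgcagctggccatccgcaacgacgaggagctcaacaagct
Hist1h2ak, chromosome 13: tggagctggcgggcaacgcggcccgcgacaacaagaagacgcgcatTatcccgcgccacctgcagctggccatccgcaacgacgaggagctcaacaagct
Hist1h4a, chromosome 13: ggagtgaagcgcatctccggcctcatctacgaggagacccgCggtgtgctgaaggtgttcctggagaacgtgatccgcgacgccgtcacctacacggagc
Hist1h4d, chromosome 13: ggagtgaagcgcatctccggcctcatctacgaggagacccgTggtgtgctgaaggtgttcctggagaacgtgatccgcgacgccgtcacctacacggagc
The Hist1h2ab window was held by 17 genes, 13 of them members, and the Hist1h2ak window by 1. The Hist1h4a window was held by 9 genes, all members, and the Hist1h4d window by 1. A single base therefore separates each of these stretches from the shared one. Over the whole coding sequence the H2A pair differed at 14 of 393 bases and the H4 pair at 21 of 312.

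All classes were transcribed, at very different summed levels. The 64 members together summed to 2119 TPM in replicate 1 and 3332 TPM in replicate 2. TPM is a level per transcript length, with the same total over all rows in each library. This was 0.430% and 0.675% of all protein-coding TPM in the same order, a mean of 0.552 ± 0.174% (SD, n = 2). As a share of all expected counts the members held 0.0637% (95% Wilson interval 0.0629 to 0.0645%) in replicate 1 and 0.0972% (0.0962 to 0.0983%) in replicate 2, intervals that cover counting error only. The libraries differed by more than that error.

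By gene rows H2B had the highest summed TPM in replicate 1 and H4 in replicate 2. With the transcripts under other gene IDs H2B was highest in both, at 1387 and 1219 TPM. H2B summed to 827 TPM in replicate 1 and 845 TPM in replicate 2, which was 39.0% and 25.3% of histone TPM. H4 summed to 463 and 1127 TPM, or 21.9% and 33.8%. H1 summed to 513 and 614 TPM, or 24.2% and 18.4%. H3 summed to 263 and 513 TPM, or 12.4% and 15.4%. H2A was the lowest class in both libraries, with a sum of 52.0 TPM in replicate 1 and 233 TPM in replicate 2, or 2.45% and 7.01%. The means over the libraries were 32.2 ± 9.68% for H2B, 27.8 ± 8.45% for H4, 21.3 ± 4.10% for H1, 13.9 ± 2.11% for H3 and 4.73 ± 3.22% for H2A (SD, n = 2). In expected counts, which are not divided by length, H1 held the largest mean share of the gene rows at 32.9 ± 4.06%, followed by H2B at 27.8 ± 7.42%, H4 at 20.7 ± 6.84%, H3 at 14.1 ± 2.74% and H2A at 4.57 ± 1.90%. With the transcripts under other gene IDs the order of the leading classes turned, to 34.3 ± 9.95% for H2B and 29.7 ± 2.14% for H1.

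**Figure D1:**
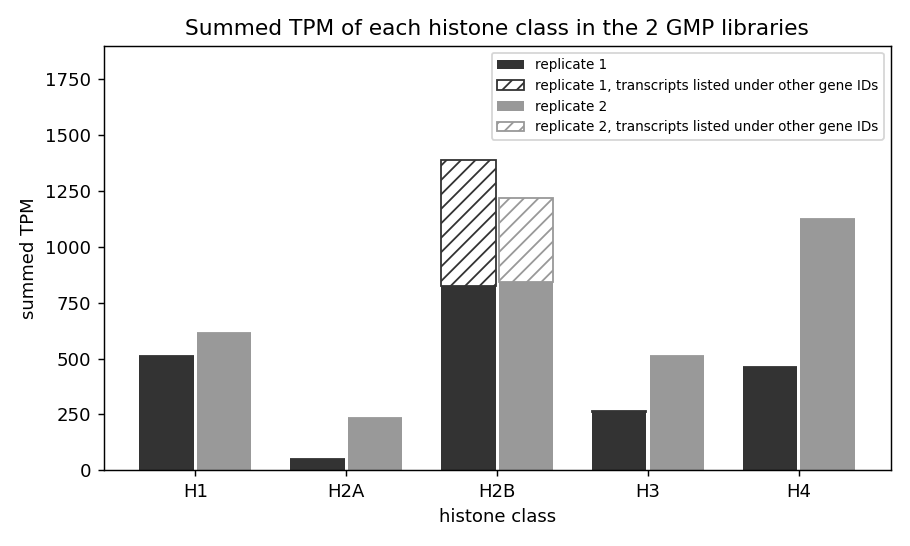
Summed TPM of each histone class, with replicate 1 as the dark bar and replicate 2 as the light bar of each pair. Hatched parts are M21 transcripts of members that the deposited tables list under another gene ID. H2B was at 827 and 845 TPM without the hatched part, and H2A was lowest in both libraries.

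The level of H2B depended on where the deposited tables placed some transcripts. Of 75 M21 transcripts of the members, 73 were in the deposited transcript tables, 4 of them under another gene ID and so outside the members' gene rows. The M21 transcript of Hist2h2bb, an H2B gene of the Hist2 cluster, was listed under the gene that M21 calls Gm42743. It had 430 TPM (2807 expected counts) in replicate 1 and 255 TPM (1501 expected counts) in replicate 2, and the authors' posterior SD of its count was 0.231% and 0.241%. On its TPM it stood above every gene row of a member in replicate 1, and above all but Hist1h4d and Hist1h1e in replicate 2. A transcript of Hist1h2br had 72.5 and 73.8 TPM under another ID, one of Hist1h2bq 57.2 and 46.0 TPM, and one of Hist2h3c1 1.29 and 0 TPM. With these 4 added, a step chosen after seeing the data, H2B summed to 1387 TPM in replicate 1 and 1219 TPM in replicate 2, and its mean share of histone TPM was 42.3%. The values below are those of the gene rows unless stated. Hist1h2bh and Hist1h2bm were not analysed here.

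**Figure D2:**
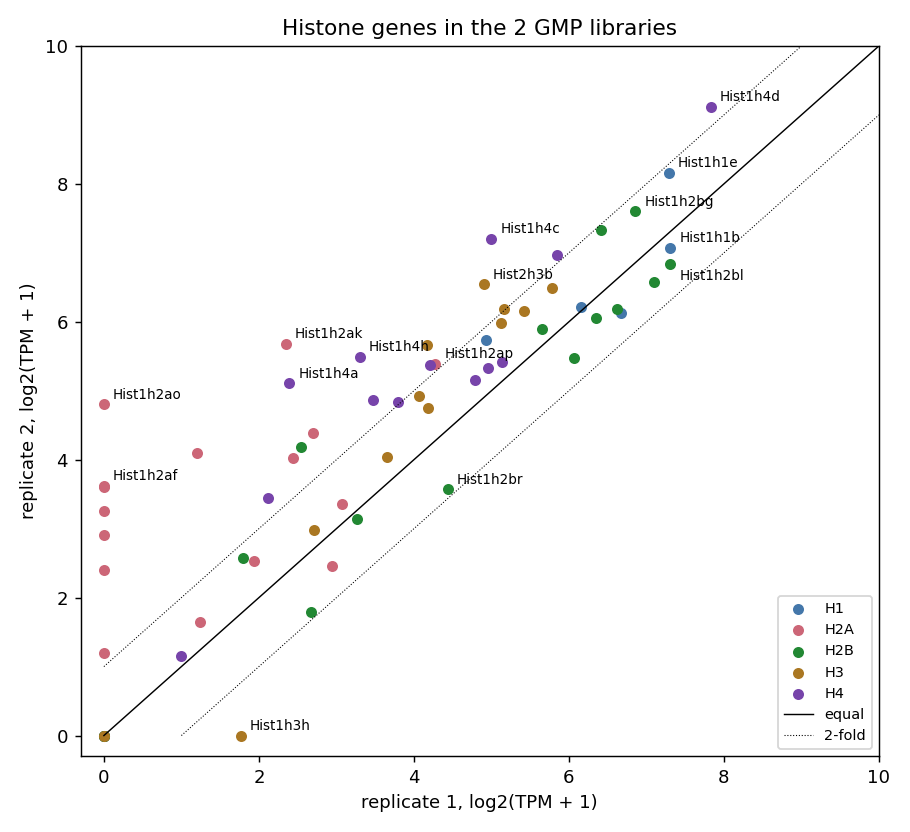
Each point is 1 of the 64 histone genes, with log2(TPM + 1) in replicate 1 on the horizontal axis and in replicate 2 on the vertical axis, coloured by class. Most H2A and H4 points lie above the line of equal values, and 7 H2A genes with 0 TPM in replicate 1 had counts in replicate 2.

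Of the 64 members, 49 reached 1 TPM in both libraries, which is the case for 45.6% of all protein-coding genes. These were 5 of 6 H1, 9 of 18 H2A, 13 of 15 H2B, 10 of 12 H3 and 12 of 13 H4 genes. The median mean level was 19.7 TPM over the members and 0.55 TPM over all protein-coding genes. Hist1h1t, Hist1h2aa, Hist1h2ad, Hist1h2ba, Hist3h2ba and Hist2h3c1 had 0 counts in both libraries. Hist1h1t encodes the testis linker histone, and Hist1h2aa and Hist1h2ba encode the testis forms of H2A and H2B, which are known from germ cells. Hist1h2ad and Hist2h3c1 have no 100-base coding window of their own, so reads of these genes could have been assigned to copies.

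H1 was the class whose reads were the easiest to assign, with at least 86.3% of the 100-base coding windows of each gene found in that gene alone. The authors' posterior SD of the count, which measures how surely reads were assigned, was at most 0.388% of the count in replicate 1 and 0.536% in replicate 2. Hist1h1e was highest on the mean, with 155 TPM in replicate 1 and 286 TPM in replicate 2. Hist1h1b had 157 and 134 TPM, Hist1h1a 101 and 69.2 TPM, and Hist1h1d 70.4 and 73.0 TPM. Hist1h1c was the lowest of the expressed H1 genes at 29.4 and 52.2 TPM, although it had 1210 and 1919 expected counts where Hist1h1d had 1206 and 1123. The deposited model of Hist1h1c is 1560 bases long and that of Hist1h1d 744, which lowers the TPM of Hist1h1c for a given count. Hist1h1a and Hist1h1b were higher in replicate 1, the other expressed H1 genes in replicate 2, and none was over 2-fold apart. Transcripts of 5 linker histone genes were thus present in these pools of cells, with Hist1h1e at 30.2% and 46.6% of H1 TPM.

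H2A levels were low and differed most between the libraries. Hist1h2ap had 18.4 TPM in replicate 1 and 41.0 TPM in replicate 2, and Hist1h2ak 4.10 and 50.4 TPM. Hist1h2ao had 0 and 26.9 TPM, and Hist2h2ac 5.46 and 20.0 TPM. In replicate 1, 9 of 18 H2A genes had 0 counts, against 2 in replicate 2. The 7 that were counted in replicate 2 alone were Hist1h2ac, Hist1h2af, Hist1h2ah, Hist1h2ai, Hist1h2an, Hist1h2ao and Hist2h2aa2, from 1.30 TPM for Hist1h2ac to 26.9 TPM for Hist1h2ao. The median posterior SD was 5.62% of the count over the 9 genes with counts in replicate 1, where that of H4 was 6.18%, and 12.0% over the 16 in replicate 2, where H2A had the highest median of the classes. It reached 31.1% for Hist1h2ae in replicate 1 and 43.4% for Hist1h2ac in replicate 2. Hist1h2ak had 28.2 and 313 expected counts with posterior SDs of 1.31% and 1.48%. The lowest H2A genes of the class were Hist1h2aa and Hist1h2ad at 0. All 18 H2A genes overlap another annotated M21 gene, mostly short entries of the miRNA biotype on the opposite strand that have no row in the deposited tables, and whether counting used strand is not given in the sources used here.

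By protein, translated from the M21 coding sequences, the H2A genes fell into 9 groups. The protein encoded by Hist1h2ab, Hist1h2ac, Hist1h2ad, Hist1h2ae, Hist1h2ag, Hist1h2ai, Hist1h2an, Hist1h2ao and Hist1h2ap held 51.8% of H2A TPM in replicate 1 and 50.7% in replicate 2. In expected counts its share was 30.3% and 47.4% of the class, so the close TPM shares do not hold on that scale. Hist1h2ak, which differs from it at 1 residue of 130, held 7.89% and 21.6%.

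The H2B genes were high, and their sum differed little between the libraries. Hist1h2bg had 115 TPM in replicate 1 and 193 TPM in replicate 2, Hist1h2bl 158 and 114 TPM, Hist1h2bk 84.6 and 161 TPM, and Hist1h2bn 135 and 94.5 TPM. Of the 13 genes with counts, which share reads, 8 were higher in replicate 1 and 5 in replicate 2. The share of all protein-coding genes higher in either library was not computed. Hist1h2bp, at 4.82 and 17.2 TPM, was the one H2B gene over 2-fold apart in TPM + 1. Hist2h2be, at 5.36 and 2.46 TPM, was over 2-fold apart in TPM alone. Hist1h2ba and Hist3h2ba were at 0. The protein shared by Hist1h2bf, Hist1h2bj, Hist1h2bl and Hist1h2bn held 53.1% of H2B TPM in replicate 1 and 37.5% in replicate 2. That of Hist1h2bc, Hist1h2be and Hist1h2bg held 20.9% and 30.7%. In expected counts the shares were 37.6% and 26.8% for the protein shared by Hist1h2bl and 28.9% and 37.9% for that of Hist1h2bg, so that of Hist1h2bg was higher in replicate 2. Both shares would be lower with the Hist2h2bb transcript counted. Of the 64 members, 4 had more than 1 transcript in the deposited tables, all of them H2B genes. In Hist1h2be the transcript ENSMUST00000091704 carried 90.0% of the gene's TPM in replicate 1 and 81.3% in replicate 2, at 7.75 and 6.39 TPM. In Hist1h2bp, Hist1h2bq and Hist1h2br a single transcript carried 100% in both.

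Most H2A genes have an H2B gene beside them on the opposite strand, and such pairs share 1 start region. There were 12 H2A and H2B pairs, with 176 to 306 bases between their starts. In 8 of 12 pairs the H2B gene was higher in both libraries, and in 10 of 12 once the transcripts under other gene IDs were added. Summed over the pairs, H2B reached 721 TPM in replicate 1 and 765 TPM in replicate 2, and H2A 32.1 and 180 TPM. Hist1h2bl had 158 and 114 TPM while its partner Hist1h2ai had 0 and 8.53 TPM. Hist1h2bf had 80.4 and 65.4 TPM while Hist1h2ad had 0 in both. Hist1h2ak and Hist1h2bn form a pair, and there the H2B gene had 135 and 94.5 TPM and the H2A gene 4.10 and 50.4 TPM. In the pair Hist2h2ac and Hist2h2be the H2A gene had 5.46 and 20.0 TPM and the H2B gene 5.36 and 2.46 TPM. In expected counts the H2A gene had 57.8 and 191 and the H2B gene 387 and 159. The deposited model of Hist2h2be is 2620 bases long and that of Hist2h2ac 520, which lowers the TPM of Hist2h2be for a given count.

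**Figure D3:**
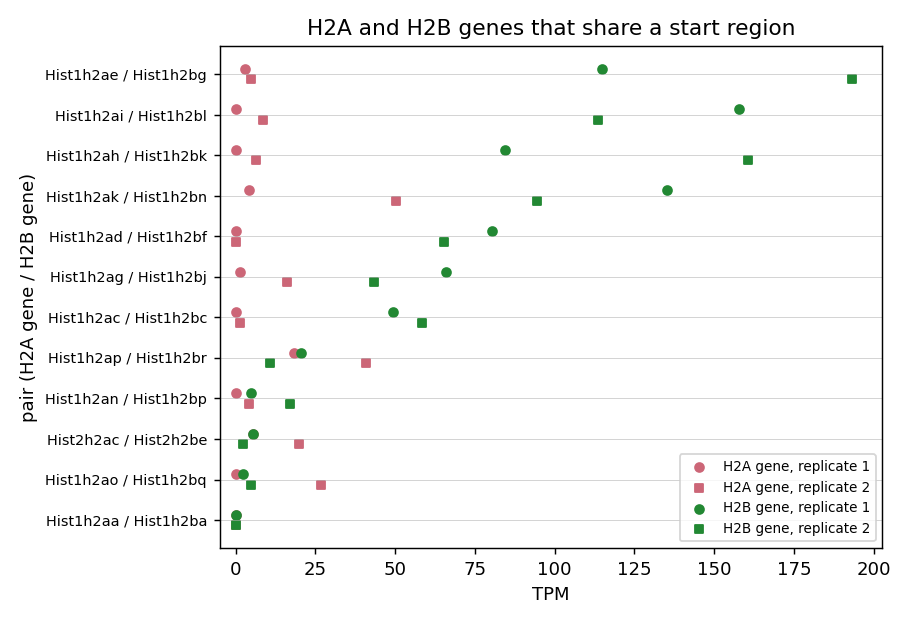
TPM of the H2A gene and the H2B gene of each of the 12 pairs that share a start region, with circles for replicate 1 and squares for replicate 2. In the 7 pairs at the top the H2B gene lies to the right of its H2A partner in both libraries. Gene rows are plotted, without the transcripts of Hist1h2br and Hist1h2bq under other gene IDs.

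Of the 11 H3 genes with counts, which share reads, 10 were higher in replicate 2 and 1 in replicate 1. The median log2 ratio of TPM + 1, replicate 1 over replicate 2, was -0.04 over all protein-coding genes at a mean of 1 TPM or more. Hist1h3d had 54.0 TPM in replicate 1 and 88.8 TPM in replicate 2, Hist2h3b 28.9 and 92.2 TPM, Hist1h3b 41.7 and 70.6 TPM, and Hist1h3i 34.8 and 71.8 TPM. Hist2h3c2 had 17.0 and 49.4 TPM. Hist1h3h was the exception, at 2.40 and 0 TPM from 17.7 and 0 expected counts with a posterior SD of 29.7% in replicate 1. Hist2h3c1 was lowest, at 0. The H3 genes encode a pair of main proteins of 136 residues that differ at 1 residue, and another form of 181 residues in the M21 model of Hist2h3c1. The protein of Hist1h3b, Hist1h3c, Hist1h3d, Hist1h3e, Hist1h3f, Hist2h3b and Hist2h3c2, known as H3.2, held 66.9% of H3 TPM in replicate 1 and 68.2% in replicate 2. The protein of Hist1h3a, Hist1h3g, Hist1h3h and Hist1h3i, known as H3.1, held 33.1% and 31.8%. The split was 67.6 ± 0.857% to 32.4 ± 0.857% (SD, n = 2) in TPM. In expected counts H3.2 held 77.2% and 78.2% and H3.1 22.8% and 21.8%. The SD does not cover how reads were divided between the proteins. A 100-base coding window of Hist1h3a, an H3.1 gene, was held by 9 members, H3.2 genes among them.

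All 13 H4 genes encode 1 protein of 103 residues, and all 13 were higher in replicate 2. Copies share reads, so the 13 are not separate counts. The share of all protein-coding genes higher in replicate 2 was not computed. Their median log2 ratio of TPM + 1, replicate 1 over replicate 2, was -0.04 at a mean of 1 TPM or more. Hist1h4d, at chr13:23581598-23582735, was the highest member of any class by its gene row, with 227 TPM in replicate 1 and 555 TPM in replicate 2. It held 49.0% and 49.3% of H4 TPM, and every window of 100 coding bases was found in it alone, against 57.8% of those of 50 bases, with posterior SDs of 0.244% and 0.119%. Hist1h4k had 56.4 and 124 TPM, Hist1h4c 31.0 and 146 TPM, and Hist1h4m 34.2 and 41.9 TPM. Hist1h4j was lowest at 0.990 and 1.22 TPM. Hist1h4a had 4.24 and 33.4 TPM and Hist1h4h 8.85 and 44.1 TPM. Hist1h4f had 17.6 and 40.7 TPM, Hist1h4n 10.1 and 28.2 TPM and Hist2h4 12.9 and 27.6 TPM. Hist2h4 and Hist4h4, with all of their 100-base windows in 1 gene and 93.9% and 100% of their 50-base windows, had 555 and 1066 counts and 265 and 707 counts. Their deposited models of 1630 and 2879 bases give them 12.9 and 27.6 TPM and 3.32 and 9.91 TPM. By expected counts the 4 H4 genes with at least 75% of their 100-base windows to themselves held 2500 of 4093 counts in replicate 1 and 5470 of 8858 in replicate 2. The part of read sharing in this order was not tested.

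Between the libraries the classes moved unequally. The log2 ratio of class sums, replicate 1 over replicate 2, was -2.17 for H2A, -1.28 for H4, -0.96 for H3, -0.26 for H1 and -0.03 for H2B, the last of which was 0.02 after TMM scaling of the counts and 0.19 with the transcripts under other gene IDs added. In CPM the H2A ratio was smaller in size, at -1.48, and Hist3h2a, with a deposited model of 2146 bases, held 46.9% of H2A counts in replicate 1 and 11.4% in replicate 2. Over the 57 members at a mean of 1 TPM or more, the median log2 ratio of TPM + 1 was -0.81, set beside -0.04 over the 10278 protein-coding genes at that level. Of the 57, 1 member was over 2-fold higher in replicate 1 and 24 were over 2-fold higher in replicate 2. Among all protein-coding genes at that level the shares were 3.08% and 4.44%. The 24 comprised 11 of 15 H2A, 9 of 13 H4, 3 of 11 H3, 1 of 13 H2B and 0 of 5 H1 genes. The members of a class share reads and are not independent counts. The authors' TPM intervals, whose level is not given in the sources used here, did not overlap for 10 of the 57 with replicate 1 higher and for 36 with replicate 2 higher, set beside 25.1% and 33.1% of all. Such an interval need not hold the TPM itself: that of Hist1h1e in replicate 2 was 266 to 282, below its 286 TPM.

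Base composition moved with these ratios. The median share of G and C in the coding sequence was 68.8% in H2A, 66.9% in H3, 65.1% in H4, 62.5% in H2B and 59.4% in H1. Across the 57 members the ratio fell as this share rose, with a Pearson r of -0.58 and a Spearman rho of -0.57, a description over genes that share libraries, reads and descent. Over the M21 members, H2B, at 55.4 to 63.8% G and C, and H4, at 62.2 to 66.0%, overlapped in composition. The median log2 ratio at a mean of 1 TPM or more was 0.29 in H2B and -1.17 in H4. Among other protein-coding genes at a mean of 1 TPM or more, the median log2 ratio was -0.20 over the 148 genes with at least 65% G and C and 0.01 over the 2363 genes with 45 to 50%. Among the short ones, with under 700 coding bases, it was -0.18 over 52 genes and 0.06 over 385 genes in the same bins. Of the 148 genes 12.2%, and of the 52 short ones 19.2%, were over 2-fold higher in replicate 2, set beside 24 of 57 members. In the bin of 60 to 65% the median was -0.23 over 848 genes, of which 8.14% were over 2-fold higher in replicate 2. The medians of the 148 genes and of the 52 short ones went the same way as the class ratios of H2A and H4 and were smaller in size. The share of windows found in 1 gene was only loosely related to the ratio across members, with a Spearman rho of 0.19. The part of base composition in the difference between the libraries was not tested.

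**Figure D4:**
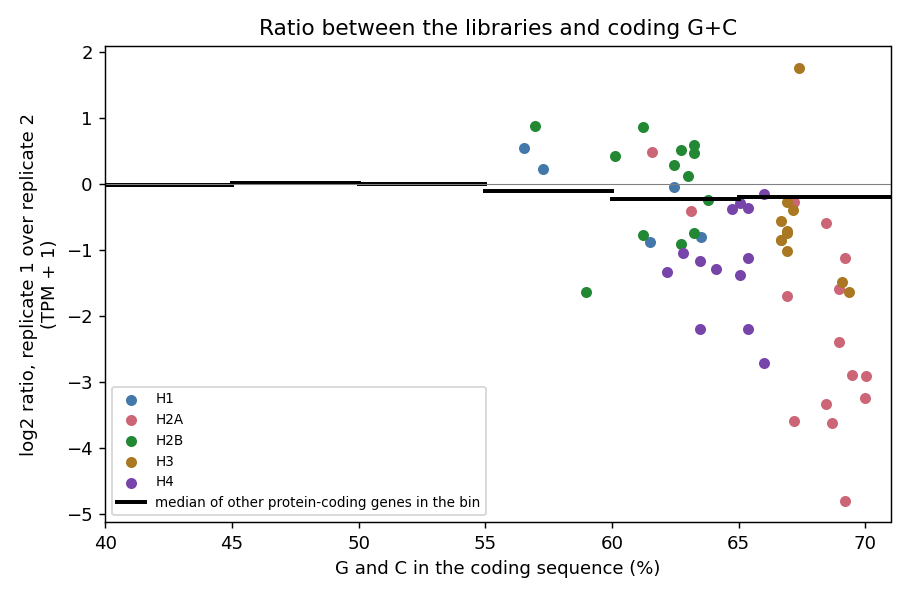
The log2 ratio of TPM + 1, replicate 1 over replicate 2, against the percent of G and C in the coding sequence for the 57 members at a mean of 1 TPM or more. Black lines give the median over other protein-coding genes in each bin, -0.20 in the highest. H2A genes lie furthest below 0.

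Promoter elements known for these genes differed in frequency between the classes. The 250 bases before the start were read from RefSeq on GRCm38.p6 for 61 members and searched on both strands. The octamer ATTTGCAT, which binds POU-domain factors such as the product of Pou2f1, was found in 7 of 17 H2A and 6 of 16 H2B windows and in 0 of the 6 H1, 10 H3 and 12 H4 windows, set beside 1.60% of all 32817 promoters. CCAAT was in 17 of 17 H2A, 16 of 16 H2B, 6 of 6 H1, 8 of 10 H3 and 3 of 12 H4 windows, set beside 33.8% of all. AAACACA, an element described for H1 genes, was in 5 of 6 H1 windows, set beside 6.25% of all. TATAAA was in 29 of 61, set beside 12.4%. H2A and H2B windows of a pair overlap, so they are not separate counts. One promoter of each kind is shown for the highest gene row of H4, H2B and H1, with matches to these 4 motifs in capitals.
Hist1h4d, chr13:23581318-23581567, plus strand: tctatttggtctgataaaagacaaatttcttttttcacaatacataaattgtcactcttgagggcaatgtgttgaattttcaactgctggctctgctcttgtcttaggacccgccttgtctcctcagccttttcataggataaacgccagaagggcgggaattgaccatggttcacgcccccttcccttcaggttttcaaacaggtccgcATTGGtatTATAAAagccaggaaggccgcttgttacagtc
Hist1h2bg, chr13:23571150-23571399, plus strand: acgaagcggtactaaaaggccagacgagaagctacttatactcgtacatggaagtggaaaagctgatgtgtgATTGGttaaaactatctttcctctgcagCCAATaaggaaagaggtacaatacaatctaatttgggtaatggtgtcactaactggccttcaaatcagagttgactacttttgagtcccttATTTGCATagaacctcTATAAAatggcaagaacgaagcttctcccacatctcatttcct
Hist1h1e, chr13:23622559-23622808, minus strand: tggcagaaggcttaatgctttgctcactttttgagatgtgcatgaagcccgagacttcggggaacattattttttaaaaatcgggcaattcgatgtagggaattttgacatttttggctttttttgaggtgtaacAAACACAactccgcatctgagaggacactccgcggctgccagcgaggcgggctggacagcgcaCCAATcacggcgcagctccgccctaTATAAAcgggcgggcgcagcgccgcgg
The Hist1h2bg window holds the octamer upstream of TATAAA, and that gene had 115 and 193 TPM. Hist1h2bl and Hist1h2bn, with no octamer in their windows, had 158 and 114 TPM and 135 and 94.5 TPM. In expected counts Hist1h2bg was above both in each library, at 1070 and 1620. Hist1h2bl had 1028 and 670 counts and Hist1h2bn 883 and 557. The deposited model of Hist1h2bg is 477 bases long and those of Hist1h2bl and Hist1h2bn 381. A link between the octamer and the level was not tested. A match is a description of letters in these windows, not a bound site.

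Replacement histones set the members' levels in context, and the balance differed by class. H2afz, the replacement H2A of promoters, had 646 TPM in replicate 1 and 555 TPM in replicate 2. H2afy, which encodes macroH2A, had 443 and 535 TPM, and H3f3a and H3f3b, which encode H3.3, had 573 and 580 TPM and 220 and 215 TPM. The 18 H2A members made up 3.91% of the TPM of members and 6 replacement H2A genes in replicate 1, and 16.02% in replicate 2. The 12 H3 members made up 23.8% and 38.2% beside 3 replacement H3 genes. For H1 the order was the other way, with the 6 members at 99.0% and 98.5% beside H1f0 and H1fx, which had 4.53 and 7.27 TPM and 0.640 and 2.38 TPM. The median log2 ratio of the replacement genes was -0.02 over 11 genes, beside -0.81 over the members, and H1fx was the one over 2-fold apart.

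**Figure D5:**
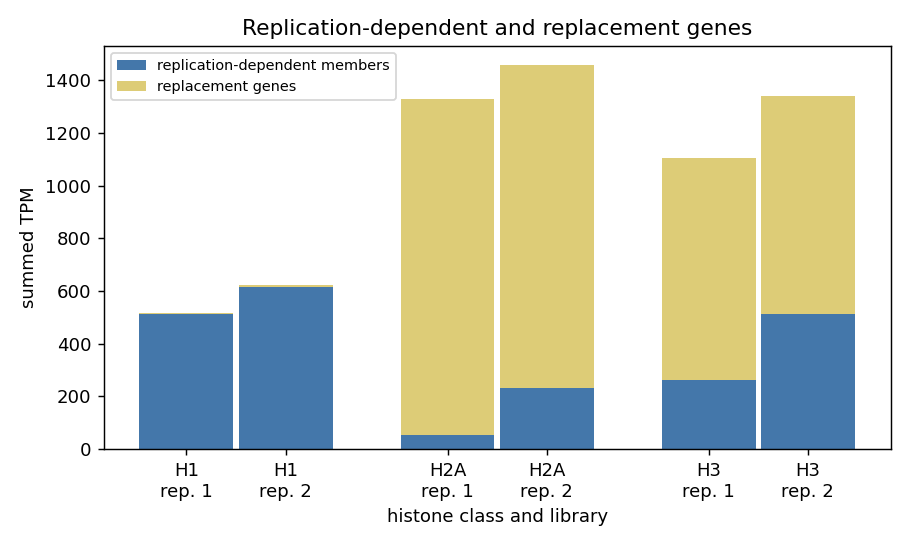
Summed TPM of the replication-dependent members and the replacement genes of H1, H2A and H3 in each library, stacked from 0. Members hold nearly all H1 TPM, and the replacement genes hold most of the H2A and H3 TPM in both libraries.

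The genes that make, process and carry histone messages and proteins were nearly all expressed. Of all protein-coding genes, 45.6% reached 1 TPM in both libraries. All 4 factors of histone gene transcription reached 1 TPM in both libraries: Casp8ap2 had 25.9 and 24.3 TPM, Npat, the coactivator of S phase histone transcription, 13.8 and 14.8 TPM, Pou2f1 15.02 and 9.81 TPM, and Hinfp, which acts on H4 promoters, 2.39 and 4.93 TPM. Of 12 genes for 3' end processing 10 did so. Slbp, whose product binds the stem-loop, had 73.7 and 82.8 TPM, Srrt 49.1 and 59.99 TPM, Sympk 36.3 and 45.4 TPM, and Ncbp1 37.9 and 35.8 TPM. Rnu7, the U7 small nuclear RNA that pairs with the histone message, had 0 counts in both libraries, and it is shorter than the size class kept. All 6 genes of histone mRNA decay did so, led by Tut4 at 36.9 and 47.9 TPM, Eri1, the nuclease that trims the stem-loop, at 17.3 and 14.1 TPM, Upf1 at 14.2 and 15.9 TPM and Tut7 at 12.9 and 10.01 TPM. All 19 histone chaperone genes did so, from Ubn1 at 15.4 TPM on average to Npm1 at 1132 and 1118 TPM, with Nap1l1 at 234 and 262 TPM, Ssrp1 at 110 and 123 TPM and Rbbp7 at 122 and 89.2 TPM. The median log2 ratio was -0.01 over the transcription factors, 0.08 over the processing genes, 0.06 over the decay genes and -0.02 over the chaperones, set beside -0.04 over all protein-coding genes and -0.81 over the histone members. Zfp473, at 2.90 and 0.780 TPM, was the one gene of these 4 lists at a mean of 1 TPM or more that was over 2-fold apart in TPM + 1. Hinfp was over 2-fold apart in TPM alone.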

How the data were processed

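Both libraries have deposited gene and transcript tables made on mm10 with annotation M4 from reads aligned to the transcriptome, per the text files deposited with them. Which aligner and which estimator made them is not given in the sources used here. Expected counts are the authors' estimated read counts. TPM values are deposited per length, with 1 common total for each library. The percent values deposited for transcripts are shares of a gene's TPM.

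Members and lists were chosen with earlier results of these data known. Symbols and sequences came from GENCODE M21, later than M4, joined on gene ID without version, so M4 models can differ. No table of proteins was used, and proteins were translated from M21 coding sequences. Ratios used a pseudocount of 1 and genes at a mean of 1 TPM or more. Named were the 4 highest and the lowest members per class, all H1 genes, the testis genes, members over 2-fold apart at a mean of 10 TPM or more, members at 0 in both libraries, the 4 highest of each list and the leading transcripts. A few more, such as Hist2h2bb and Zfp473, were picked once their values were known. TMM factors came from edgeR 4.0.16 and size factors from DESeq2 1.42.0 (R 4.3.3), after rounding the expected counts to whole numbers. Other steps used Python 3.11.15, pandas 2.3.3, scipy 1.17.1 and matplotlib 3.10.9. The ratio was tried on simulated CPM with a pseudocount of 0.1, which does not cover TPM with a pseudocount of 1. Alternatives covered units, filters, pseudocounts, scalings, each library left out, and members' transcripts under other gene IDs. Some marker genes are not reported here.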

Additional observations from a re-analysis of the deposited data

How the results depend on the processing

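In expected counts rather than TPM, H1 held 32.9% of the histone total and the members 0.151% of the protein-coding total. Over all table rows the members held 0.273% of TPM. Adding the transcripts under other gene IDs, chosen after seeing the data, gave H2B 42.3%. The log2 ratio of the H2A sums was -1.48 in CPM, -1.40 with TMM factors and -1.40 with DESeq2 size factors, and its size in TPM depends on the deposited model lengths. With a filter at a mean of 10 TPM, 16 members were over 2-fold apart, fewer being tested. Apart from leaving out a library, 52 other alternative values of class shares, class ratios and member counts moved by less than the library SD or less than 1.5 times, an SD that rests on 2 libraries. For the shares by protein and by cluster, 9 moved by more, all in expected counts. Leaving out a library leaves the value of the other one, from 2.45 to 7.01% for H2A, 12.4 to 15.4% for H3, 18.4 to 24.2% for H1, 21.9 to 33.8% for H4 and 25.3 to 39.0% for H2B. No paired analysis was possible because there is 1 group. The 2 libraries of 100 cells each limit every value, and the H2A values rest on few, shared reads.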

Other observations

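Pseudogenes with a histone symbol stood outside the members. Hist3h2bb-ps had 1.90 TPM from 17 expected counts in replicate 1 and 0.50 TPM from 4 in replicate 2. Hist1h2aj and Hist1h2al had 0 counts in both libraries.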
